A study of Sylvia borin with 20 samples.

Results

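The cytosolic ribosomal protein genes are a set of 72 gene symbols, 44 of the large subunit and 28 of the small subunit, out of 20898 symbols in the tables. They were chosen by a rule on names, as every symbol made of RPL or RPS with a number (and an A, X or L where there is one), together with RPLP0, RPLP1, RPLP2, RPSA and FAU, and the rule uses no measured value. Whole blood was taken from 10 wild garden warblers (Sylvia borin) caught during spring migration and kept 5 days in single cages with free access to mealworms and water. The fat group is the day 5 sample of each bird (10 libraries), and the lean group is the day 1 sample of the same birds (10 libraries). The sources used here give neither sex nor age, and all birds passed through the same cage and diet, so day in captivity, refuelling and fatness cannot be told apart. Reads were aligned by the authors to the genome of the zebra finch, another songbird. The level of a gene is its FPKM (fragments per kilobase of the gene, scaled to library size). FPKM puts genes of different length on a common scale. The part of sequence differences between the species in these levels was not tested.

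A ribosome is built from a large and a small subunit, and each holds 1 copy of nearly every ribosomal protein bound to ribosomal RNA. The small subunit reads the mRNA, while the large subunit joins the amino acids. The mRNAs of these proteins share a pyrimidine tract at their start and are translated together when growth signals are high. In birds the red cells keep a nucleus and circulating young red cells still carry mRNA and ribosomes, so whole blood yields RNA from red cells, thrombocytes and white cells at once. The libraries therefore mix cells, and fewer cells of a type and less RNA per cell cannot be told apart.

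Each of the 72 members held 1 line in every table, and 71 of them were above 0 in all 20 libraries and were analysed (43 of the large and 28 of the small subunit). The exception was RPL3L, the form of RPL3 that mammals make in skeletal muscle and heart, which was listed at 0 in all 20 libraries. In the coordinates of the tables RPL3L lies 3.39 kb from RPS2 on the same strand, and RPS2 was measured in every library. The members were spread over 32 sequences of the zebra finch assembly with at most 7 on one of them. All 72 symbols also occur in the garden warbler annotation of RefSeq. Several members have near-identical copies or processed pseudogenes in animals, and the sources do not say how shared reads were divided, so levels of single members, and above all the order of levels, are uncertain to that extent.

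Between libraries, FPKM was divided by a size factor per library (median of ratios over 4487 genes) before any comparison, and these values are called normalized FPKM. The size factor was lower in the fat library of all 10 birds, with 0.925 ± 0.117 in fat and 1.14 ± 0.0758 in lean libraries (SD, n = 10 each). The 10 most abundant genes of a library took 84.3 ± 1.79% of all TPM in fat and 81.0 ± 3.14% in lean libraries. Sequencing depth, estimated as coverage over FPKM, was 1.27 to 3.16 gigabases in fat and 0.882 to 4.71 gigabases in lean libraries. Of 10 listed red cell markers 7 matched, and their summed normalized FPKM ran from 166291 to 300367 in fat and from 122490 to 187160 in lean libraries, higher in fat in all 10 birds. That sum is mostly α-globin (HBAA, mean 219015 in fat and 141249 in lean libraries). With size factors 6 of the 7 were higher and 1 was lower in fat (3 and 4 with TPM as deposited), with a median log2 fold change of 0.38. The lower one was SLC4A1, the anion exchanger of the red cell membrane, at −0.10. By limma 0 of the 7 were called (3 at an unadjusted p under 0.05, all higher, and 2 called with the replicate block). Of 7 thrombocyte markers 6 matched, with sums of 53.4 to 78.2 in fat and 46.8 to 146 in lean libraries, lower in fat in 7 birds. The largest part of that sum, TUBB1, had a mean of 37.4 in fat and 36.6 in lean libraries. Of the 5 analysed, TUBB1 was higher and 4 were lower in fat, with a median log2 fold change of −0.83. By limma 2 of the 5 were called lower, beside 3.27% of all genes (4 with the replicate block, beside 8.08%). Of 6 heterophil markers 3 matched, with sums of 0 to 2.57 in fat and 0.756 to 12.6 in lean libraries, lower in fat in 9 birds. All 3 were lower in fat by limma, and 1 was called (2 with the replicate block), at levels near 0. Marker sums of T cells (4 of 7 matched, CD3E listed at 0 everywhere), B cells (4 of 6) and monocytes (all 5 matched, with CD14, MARCO and LYZ listed at 0 everywhere) stayed at or below 10.1 in every library. The part of these markers, of depth and of the size factors in the results on ribosomal protein genes was not tested.

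The levels of the 71 members spanned 379-fold, but 69 of them lay within 99.2-fold, since RPL7L1 and RPS27L alone were below 20 normalized FPKM on average. A level of at least 100 was reached by 63 members and a level of at least 1000 by 7. The member with the highest mean over all 20 libraries was FAU (rank 4 in fat and 1 in lean libraries), whose product is a ubiquitin-like protein fused to the small subunit protein RPS30. FAU was followed by 5 large subunit genes, which were RPL26L1, a paralog of RPL26, RPL37, RPLP1 of the stalk, RPL32 and RPL23A. No RPL26 symbol was listed, so RPL26L1 could not be set against RPL26. Abundant small subunit genes after FAU included RPS7, RPS25, which is needed for some cap-independent initiation, and RPS14.

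RPL26L1 lay between 1976 and 4255 normalized FPKM in fat libraries (median 2813) and between 1643 and 5274 in lean libraries (median 2612). RPL37 lay between 1671 and 5998 in fat libraries (median 2594) and between 858 and 5702 in lean libraries (median 2059). RPLP1 lay between 1482 and 3390 in fat libraries (median 2285) and between 1040 and 5029 in lean libraries (median 1744). For all 3 genes the fat and lean ranges overlapped widely, and none passed the test between fat and lean. RPL23A, which sits at the rim of the peptide exit, had a median of 1238 in fat and 1216 in lean libraries, RPS25 of 807 in fat and 680 in lean libraries, and RPS14 of 764 in fat and 564 in lean libraries. These medians also differed by less than the spread of the libraries.

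The order of abundance was loose in detail. Of the 14 pairs of neighbours among the first 15 members, the higher-ranked gene was above its neighbour in between 8 and 16 of the 20 libraries, so no neighbouring pair was ordered the same way in every library. FAU exceeded RPL26L1 in 1 fat library and 7 lean libraries. RPS7 exceeded RPL34 in 8 fat libraries and 2 lean libraries, and RPLP1 exceeded RPL32 in 10 fat libraries and 6 lean libraries. Across the 71 members the order in fat and in lean libraries had a Spearman correlation of 0.96 as a description (the points share libraries and gene lengths), 51 members moved by at most 5 places and the largest move was 20 places. That move was of RPS28, at rank 37 in fat and rank 17 in lean libraries, while RPS21 was at rank 35 in fat and 52 in lean libraries.

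**Figure D1:**
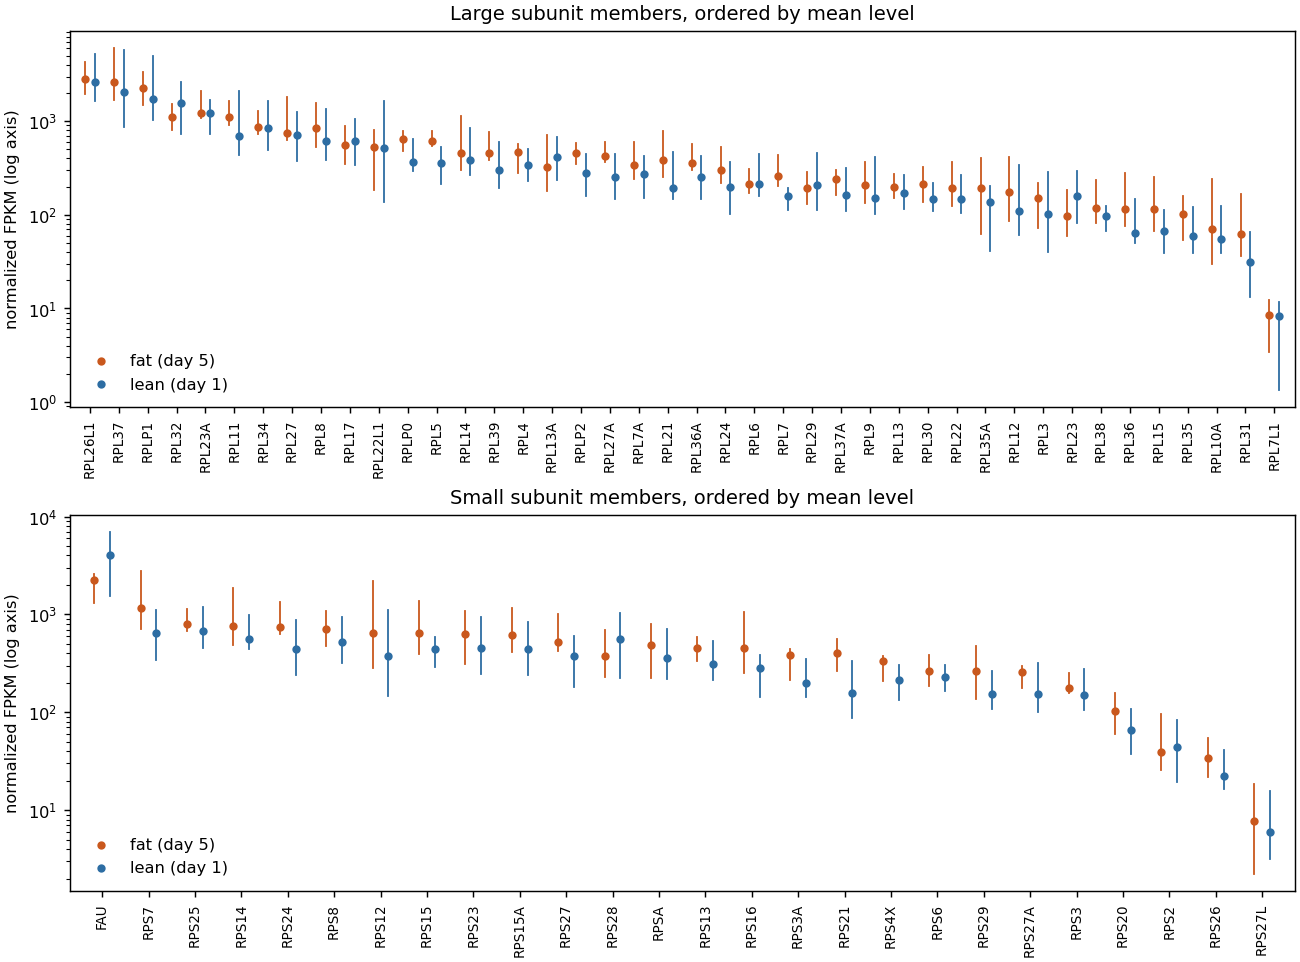
Levels of 68 of the 71 members analysed, with large subunit genes above and small subunit genes below, ordered by mean level on a logarithmic axis of normalized FPKM. Points are medians and lines run from the lowest to the highest of 10 libraries, fat in orange at the left and lean in blue at the right of each gene; FAU is the only gene of the first 10 small subunit genes whose lean median lies far above its fat median.

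Fat and lean were compared for every gene with limma on log2(normalized FPKM + 0.1), with Benjamini-Hochberg adjustment over 7800 genes, and fold changes are fat over lean on that scale. Of the 71 members 61 were higher and 10 lower in fat birds, with a median log2 fold change of 0.44 against −0.10 over all genes, and 65 members lay above that all-gene median. The test called 18 members higher in fat birds (10 of the large and 8 of the small subunit), beside 1.49% of all genes called higher, and 0 members lower, beside 3.27% of all genes called lower. At an unadjusted limma p under 0.05 there were 34 members higher and 2 lower, beside 576 and 1155 of all 7800 genes. With the bird as a replicate block, since both libraries of a pair come from 1 animal, limma called 32 members higher (18 large, 14 small), beside 5.18% of all genes. It called 0 lower, beside 8.08% of all genes. At an unadjusted p under 0.05 the block fit gave 48 members higher and 3 lower, beside 905 and 1442 of all 7800 genes. All 18 members called without the block were also called with it. Bird codes differ between sources for birds 8 and 10, and the replicate block on the other 8 birds called 16 members higher, beside 1.65% of all genes, and 0 lower, beside 2.21% (37 and 0 at an unadjusted p under 0.05). Of the 18 members, 12 were among these 16, and RPLP0, RPS7, RPS24, RPS15, RPS27A and RPS4X were not.

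The size of the difference depended on the scaling, as the median log2 fold change of the members was 0.44 with size factors, 0.30 under quantile normalization, 0.13 with FPKM as deposited and 0.03 with TPM as deposited. The median of all genes moved along, at −0.10, 0.05, −0.35 and −0.43 under these 4 scalings, and the members stood above it by 0.54, 0.25, 0.48 and 0.46. The number of members higher in fat birds was 61, 57, 50 and 38 in the same order. The split of calls into higher and lower members was 18 and 0 with size factors, 7 and 2 under quantile normalization (RPL27A, RPL5, RPL7, RPLP0, RPLP2, RPS21 and RPS24 higher, FAU and RPL32 lower), 3 and 4 with FPKM as deposited (RPL5, RPL7 and RPS21 higher, FAU, RPL23, RPL32 and RPS28 lower), and 1 and 4 with TPM as deposited (RPS21 higher, the same 4 genes lower). Of all genes, 0.936% were called higher and 1.35% lower under quantile normalization, 0.333% and 11% with FPKM, and 0.231% and 15.7% with TPM, so that the share of members called lower with FPKM or TPM was below that of all genes. RPS21 was called higher under all 4 scalings. Leaving out 1 bird at a time left between 6 and 14 members called higher with size factors. The lowest count was 6 without bird 10, then 8 without bird 7, 9 without bird 3 or bird 5, 10 without bird 2 or bird 6, and 11 without bird 8 or bird 9. RPL5, RPL7, RPL27A, RPLP0, RPLP2 and RPS21 were called in all 10 of these runs.

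**Figure D2:**
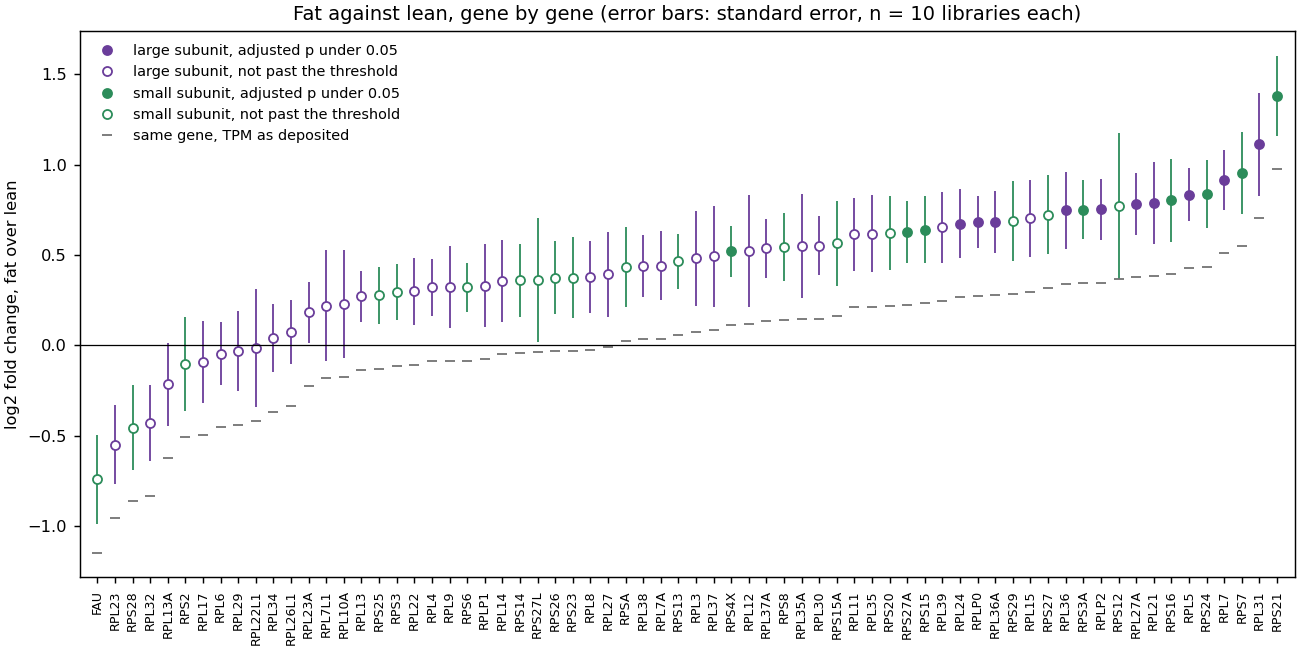
Log2 fold change, fat over lean, of 68 of the 71 members in increasing order, with the standard error from limma as error bars (n = 10 libraries each) and filled points for genes with an adjusted p under 0.05. Grey dashes give the same gene with TPM as deposited, which lie lower throughout, so that the median member is at 0.44 with size factors and 0.03 with TPM.

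RPS21, a small subunit protein that in yeast acts late in the maturation of the subunit, had the largest rise. It lay between 263 and 562 normalized FPKM in fat libraries (median 403) and between 88.2 and 333 in lean libraries (median 156). Of the fat libraries 6 were above every lean library, 9 lean libraries were below every fat library, and bird 1 alone had the lower value on day 5. The log2 fold change was 1.38 with a standard error (SE) of 0.22 (adjusted p = 0.00275, higher in 9 of 10 birds), and it stayed above 0 with TPM as deposited at 0.97.

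RPL5, which with RPL11 carries the smallest ribosomal RNA of the large subunit and binds the p53 regulator MDM2 in mammals, and RPL7 were the only members whose fat and lean ranges did not overlap, beside 0.0513% of all genes that were higher in fat without overlap. RPL5 lay between 541 and 777 normalized FPKM in fat libraries (median 615) and between 212 and 537 in lean libraries (median 360). Its log2 fold change was 0.83 (SE 0.15, adjusted p = 0.004). RPL7 lay between 202 and 437 in fat libraries (median 262) and between 113 and 196 in lean libraries (median 161). Its log2 fold change was 0.91 (SE 0.17, adjusted p = 0.00532). For both genes the gap between the groups was small, with the highest lean library just below the lowest fat one, and both were higher in fat in all 10 birds. In all, 11 members were higher in fat in all 10 birds, beside 2.15% of all genes, and 0 were lower in all 10.

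RPL31, at the rim of the peptide exit, had the largest rise of the large subunit at a low level, with 36.0 to 167 normalized FPKM in fat libraries (median 62.7) and 13.2 to 65.01 in lean libraries (median 31.5). Birds 8 and 9 had the highest values on day 5, and the ranges overlapped, although all 10 birds were higher in fat. Its log2 fold change was 1.11 (SE 0.28, adjusted p = 0.0319), and it was called in 4 of the 10 runs that left out a bird. RPL21 changed by 0.79 (SE 0.23, adjusted p = 0.0467, 10 of 10 birds) and RPL27A by 0.78 (SE 0.17, adjusted p = 0.0153, 9 of 10 birds). RPL27A was tighter, with 367 to 598 in fat libraries against 149 to 449 in lean libraries.

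Among small subunit genes RPS7 and RPS24 followed RPS21. Both are mutated in Diamond-Blackfan anemia, a human failure of red cell precursors. RPS7 lay between 716 and 2778 normalized FPKM in fat libraries (median 1159) and between 345 and 1096 in lean libraries (median 652), a log2 fold change of 0.95 (SE 0.23, adjusted p = 0.0257, higher in 9 of 10 birds). RPS24 lay between 625 and 1325 in fat libraries (median 738) and between 239 and 877 in lean libraries (median 442), a log2 fold change of 0.84 (SE 0.19, adjusted p = 0.0181, higher in 9 of 10 birds). For RPS7 4 lean libraries reached into the fat range, and for RPS24 the lean library of bird 1 alone did so. RPS16 changed by 0.80 (SE 0.23, adjusted p = 0.0471, higher in 9 of 10 birds). RPS12 had a fold change of similar size, 0.77, but an SE of 0.40, with 287 to 2180 in fat libraries and 145 to 1099 in lean libraries, and it did not pass the test (adjusted p = 0.261), but with the replicate block it was called (adjusted p = 0.0234, and 0.0234 to 0.554 over the alternatives). The other members called higher were RPL36, RPL36A, RPL24, RPLP0, RPLP2, RPS3A, RPS15, RPS27A and RPS4X, with log2 fold changes between 0.52 for RPS4X and 0.75 for RPLP2, RPS3A and RPL36.

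**Figure D3:**
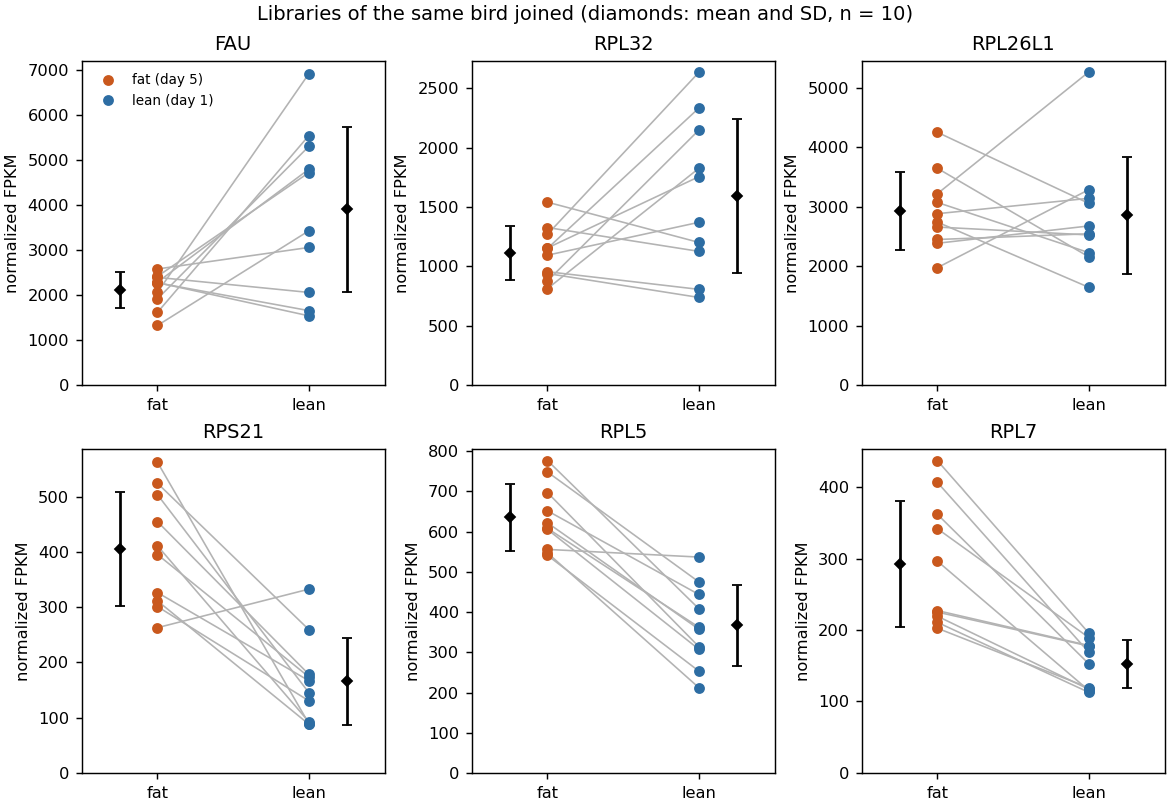
Normalized FPKM of FAU, RPL32, RPL26L1, RPS21, RPL5 and RPL7 in all 20 libraries, fat at the left and lean at the right, with grey lines joining the 2 libraries of a bird and black diamonds for the mean and SD of 10 libraries. The lean libraries of FAU run up to 6916 against 2576 in fat libraries, whereas all 10 lines of RPL5 and RPL7 lie higher on the fat side.

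The largest difference in the other direction was that of FAU. FAU lay between 1321 and 2576 normalized FPKM in fat libraries (median 2269) and between 1534 and 6916 in lean libraries (median 4070). The lean libraries of birds 4, 7 and 9 lay within the fat range at 1534 to 2054, and the other 7 lean libraries lay at 3054 or more, above every fat library. The log2 fold change was −0.74 (SE 0.25, adjusted p = 0.0778, lower in 7 of 10 birds), which did not pass the test with size factors, while over the alternatives tried the adjusted p ran from 0.00802 with TPM to 0.244. Without bird 9 FAU was called lower. The paper, which tested read counts from the same libraries, lists FAU among the ribosome genes upregulated in fat birds, the opposite direction. Its list also holds every member called higher here with size factors and without the block, except RPS4X. The reason for the difference in FAU was not tested. The SD among lean libraries (1833) was larger than among fat libraries (392).

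RPL23, a protein of the face where the subunits meet, lay between 59.3 and 182 in fat libraries (median 96.1) and between 81.6 and 295 in lean libraries (median 159), with a log2 fold change of −0.55 (SE 0.22, adjusted p = 0.135, lower in 7 of 10 birds). RPS28, which lies where the mRNA leaves the small subunit, had −0.46 (SE 0.24, adjusted p = 0.256), with 231 to 689 in fat and 225 to 1023 in lean libraries. RPL32 had −0.43 (SE 0.21, adjusted p = 0.233), with 812 to 1541 in fat and 737 to 2636 in lean libraries. None of these 3 genes passed the test with size factors, and all 3 did with TPM and with FPKM as deposited. Other members with values below 0 included RPL13A at −0.22, RPS2 at −0.10, RPL17 at −0.09 and RPL6 at −0.05, each with an SE of 0.17 or more and an adjusted p of 0.612 or more.

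Members of the same part of the ribosome did not all differ alike. Of the P stalk, which recruits the translation factors, RPLP0 lay between 476 and 790 normalized FPKM in fat libraries and between 295 and 652 in lean libraries, with a log2 fold change of 0.68 (SE 0.14, adjusted p = 0.0128, higher in 9 of 10 birds). RPLP2 lay between 350 and 580 in fat libraries and between 158 and 448 in lean libraries, with 0.75 (SE 0.17, adjusted p = 0.0175, higher in 9 of 10 birds). RPLP1 had 0.33 (SE 0.23, adjusted p = 0.41, higher in 8 of 10 birds) and turned to −0.08 with TPM as deposited, where RPLP0 and RPLP2 were at 0.28 and 0.35. In every library RPLP1 was the most abundant of the 3. In the ribosome the RPLP1 and RPLP2 proteins are bound to RPLP0 as pairs.

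Of the 2 proteins that bind the small ribosomal RNA of the large subunit, RPL5 was called and RPL11 was not, at 0.62 (SE 0.20, adjusted p = 0.0743, 9 of 10 birds), though with the replicate block it was called (adjusted p = 0.0417, and 0.0158 to 0.508 over the alternatives). At the rim of the peptide exit 5 of 7 listed genes were analysed, 4 were higher with size factors (3 with quantile normalization, FPKM or TPM) and RPL31 alone was called (2 with the replicate block). At the mRNA entry, formed by RPS2, RPS3 and the RPS30 part of FAU, 0 of 3 genes were called by limma (1 at an unadjusted p under 0.05). At the mRNA exit, with RPSA, RPS26 and RPS28, 0 of 3 were called (0 at an unadjusted p under 0.05, and RPSA with the replicate block), and RPSA lay between 224 and 792 in fat libraries and between 217 and 702 in lean libraries with a log2 fold change of 0.43 (SE 0.22, adjusted p = 0.252). Of 9 listed Diamond-Blackfan anemia genes 7 were analysed, all 7 were higher in fat birds with size factors (6 with FPKM or quantile normalization, 5 with TPM) and RPS7, RPS24 and RPL5 were called (5 with the replicate block), with a median of 0.62. The counts called without the block are to be read beside 1.49% of all genes called higher, and those with the block beside 5.18%. At an unadjusted p under 0.05, without the block, 576 of all 7800 genes were higher and 1155 lower.

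Both subunits differed between fat and lean birds by nearly the same amount. The median log2 fold change was 0.44 over 43 large subunit genes and 0.49 over 28 small subunit genes. Within a library the median large subunit gene lay below the median small subunit gene, except in the lean library of bird 3 (0.03 above). On average it lay below by 0.49 ± 0.24 on the log2 scale in fat and by 0.44 ± 0.25 in lean libraries (SD, n = 10 each). The difference between these values was −0.05 ± 0.26 (SD over 10 birds), with 5 birds above 0 and 5 below, so no shift between the subunits was seen beyond the spread of birds. Large subunit genes held 61.3 ± 1.52% of the summed normalized FPKM of the set in fat and 60.4 ± 2.83% in lean libraries.

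The level of the set differed strongly from bird to bird. The median member of a library had 383 ± 64.0 normalized FPKM in fat and 271 ± 70.2 in lean libraries (SD, n = 10 each), higher in fat in 9 of 10 birds. The exception was bird 1, with 347 in the fat and 442 in the lean library, the highest of all lean libraries. The median over members of the difference within a bird ran from −0.30 in bird 1 and −0.10 in bird 2 to 0.96 in bird 9. In birds 1 and 2 the number of members higher in fat was 19 and 32 of 71, whereas in birds 3, 4, 7 and 9 it was between 66 and 70. The lean library of bird 2 was also the one with the lowest depth, 0.882 gigabases, and the part of depth was not tested.

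As a share of all TPM the set took 3.81 ± 0.65% in fat and 4.33 ± 1.36% in lean libraries and was higher in fat in 4 birds. This share differs from the median member in its scaling and in being a sum. With size factors, large subunit genes summed to 24819 ± 4543 normalized FPKM in fat and 20881 ± 7116 in lean libraries. That sum was higher in fat in 8 birds. Small subunit genes summed to 15663 ± 3148 in fat and 13599 ± 3828 in lean libraries, higher in fat in 6 birds. The parts of scaling and of summing were not tested. The 5 most abundant members of each library took 29.7 ± 2.56% of the set in fat and 36.1 ± 4.36% in lean libraries. Their share was lower in fat in 9 of 10 birds. FAU alone took 5.25 ± 0.80% of the set in fat and 11.1 ± 4.13% in lean libraries, lower in fat in all 10 birds. The lowest lean value (6.43%) lay just under the highest fat value (6.51%). RPL26L1 took 7.33 ± 1.38% in fat and 8.27 ± 0.97% in lean libraries, RPL37 took 7.41 ± 1.85% in fat and 6.43 ± 1.91% in lean libraries, and RPLP1 took 5.74 ± 1.28% in fat and 5.55 ± 1.59% in lean libraries.

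**Figure D4:**
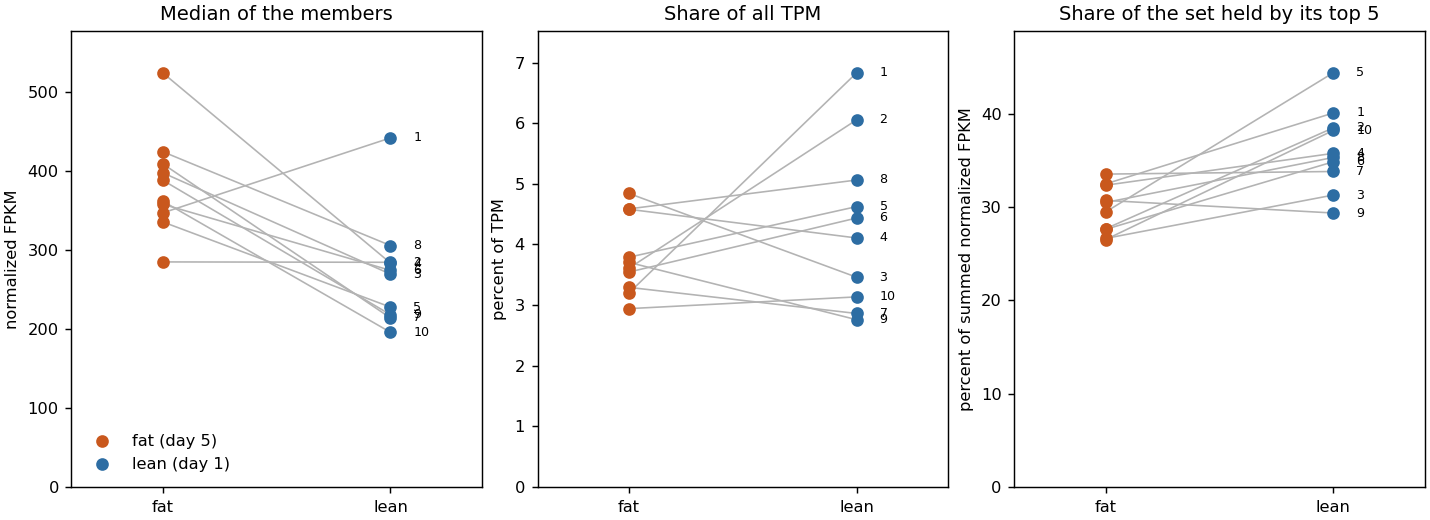
The set in each library, with fat at the left and lean at the right, lines joining the 2 libraries of a bird and bird numbers beside the lean points. The median member (left panel, normalized FPKM) is higher in fat in 9 of 10 birds, the share of all TPM (middle panel, percent) is higher in fat in 4 birds, and the share of the set held by its 5 most abundant members (right panel, percent) is lower in fat in 9 birds.

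To follow the composition of the set, each gene was expressed relative to the median member of its own library on the log2 scale, which removes any factor common to a library, and fat and lean were compared again with limma. RPS21 was the 1 member called higher relative to the set, beside 0.128% of all genes, and 11 members were called lower, beside 28.2% of all genes. The share of lower calls among members (11 of 71) is below that of all genes, whose median on this scale was −0.62 against −0.08 for the members. They included FAU, RPL23, RPS28, RPL32, RPL13A, RPL17, RPL6, RPL29, RPL34 and RPL26L1. Leaving out single birds gave between 7 and 12 lower members, with 7 without bird 5 or bird 10, and RPS21 as the 1 higher member each time. FPKM and TPM as deposited gave 10 lower and 1 higher, and quantile normalization gave 7 lower and 1 higher. With the bird as a replicate block there were 14 lower and 4 higher (RPS21, RPL31, RPL7 and RPS7). Of all 7800 genes, 1773 were called lower and 10 higher with FPKM, 1669 and 8 with TPM, and 563 and 23 under quantile normalization. With the block it was 2933 lower and 28 higher of all genes. Without single birds between 1405 and 2785 of all genes were called lower.

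FAU lay between 1.87 and 2.69 above the median member in fat libraries (median 2.50) and between 2.81 and 4.92 above it in lean libraries (median 3.77). The ranges did not overlap, and the difference was −1.26 (SE 0.22, adjusted p = 0.000863, lower in 10 of 10 birds). RPL23 lay between −2.61 and −1.51 relative to the median member in fat libraries and between −1.47 and 0.05 in lean libraries, again without overlap, a difference of −1.07 (SE 0.20, adjusted p = 0.00116, lower in 10 of 10 birds). FAU and RPL23 were the 2 members without overlap, beside 1.04% of all genes that were lower in fat without overlap on this scale. RPS28 differed by −0.97 (SE 0.21, adjusted p = 0.00235, lower in 9 of 10 birds), RPL32 by −0.95 (SE 0.20, adjusted p = 0.00213, 10 of 10 birds) and RPL13A by −0.73 (SE 0.20, adjusted p = 0.0106, 9 of 10 birds). Of the members, 6 were lower relative to the set in all 10 birds, among them FAU, RPL23, RPL32, RPL6 and RPL26L1, beside 12.9% of all genes.

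RPS21 lay between −0.40 and 0.68 relative to the median member in fat libraries (median −0.02) and between −1.77 and −0.13 in lean libraries (median −0.78). Its difference was 0.86 (SE 0.20, adjusted p = 0.00329, higher in 10 of 10 birds), with values close to 0 in birds 1, 4 and 9. RPL31 at 0.59 (adjusted p = 0.0892), RPS7 at 0.44 (adjusted p = 0.0797) and RPL7 at 0.40 (adjusted p = 0.0829) came next and did not pass without the replicate block, each being higher in 8 of 10 birds. RPL5, which had a clear rise in level, was at 0.31 relative to the set (SE 0.14, adjusted p = 0.0949, higher in 8 of 10 birds) and did not pass on this scale.

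**Figure D5:**
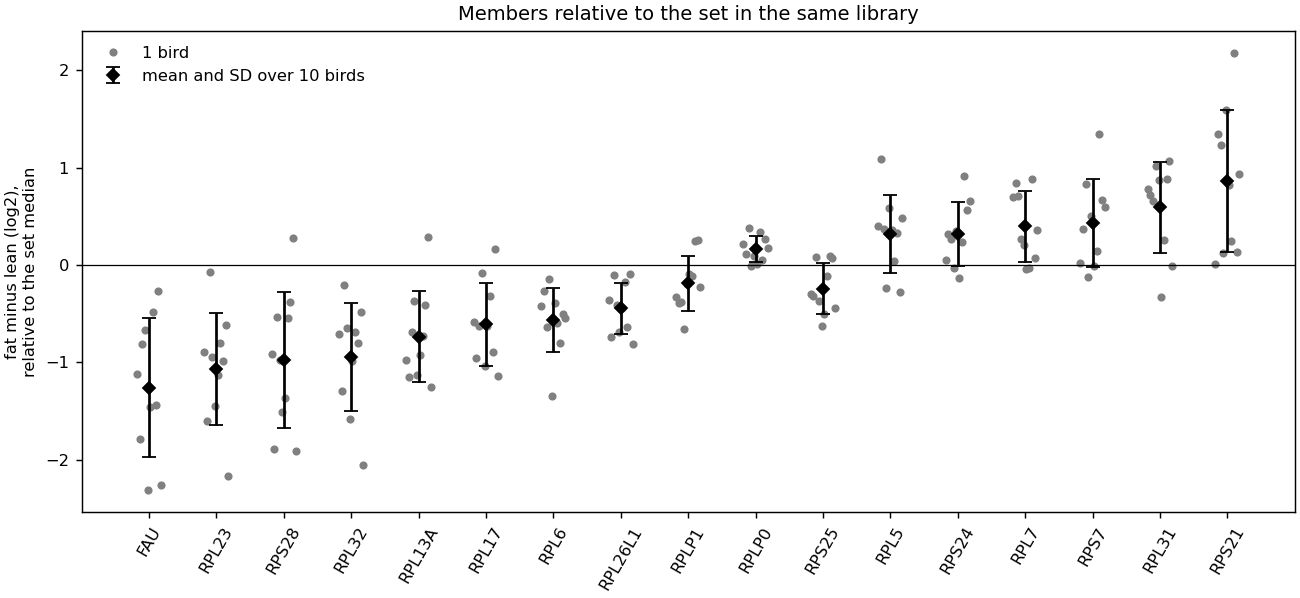
Difference between the fat and the lean library of each bird in the log2 level relative to the median member of the same library, for members towards both ends of the range and 3 near the middle (RPLP1, RPLP0 and RPS25). Grey points are birds and black diamonds the mean with the SD over 10 birds; all 10 birds are below 0 for FAU, RPL23, RPL32, RPL6 and RPL26L1 and above 0 for RPS21.

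The members also differed in how tightly they kept to the set. Around the means of fat and of lean libraries, the SD of the relative level over all libraries had a median of 0.41 on the log2 scale. It was smallest for RPLP0 (0.14) and was 0.18 for RPS25. It was largest for RPS27L (0.93), RPS12 (0.89) and RPL7L1 (0.78), and of these RPS12 was the 1 abundant gene. Deviations of the members from the group means correlated between the 2 libraries of a bird with r between 0.269 and 0.746 (median 0.549, over 71 members, which are no independent replicates), against a median of −0.06 for fat and lean libraries of different birds. By the profile of the 71 members 7 of 20 libraries were closest to the other library of the same bird, and 13 of 20 to a library of the same group. These counts cannot be set against each other, since a library had a single partner of its bird but several of its group.

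Of the paralog pairs listed 3 could be compared within a library, and the 3 differences between fat and lean were tested by exact sign flips over 10 birds (two-sided, smallest possible p = 0.00195). RPL7 exceeded RPL7L1, a nucleolar paralog, in all 20 libraries, by 5.14 ± 0.76 on the log2 scale in fat and 4.44 ± 1.06 in lean libraries (SD, n = 10 each, exact p = 0.0215, 0.0645 after Benjamini-Hochberg adjustment over 3 pairs, higher in 8 of 10 birds). RPS27 exceeded RPS27L, which responds to p53 in human cells, in all 20 libraries, by 6.21 ± 1.20 in fat and 5.85 ± 1.06 in lean libraries (exact p = 0.277, 0.338 adjusted, higher in 7 of 10 birds). In the third pair the order was turned, as RPL22 was below RPL22L1 in all 20 libraries, by 1.31 ± 0.67 in fat and 1.62 ± 0.96 in lean libraries (exact p = 0.338, 0.338 adjusted, 6 of 10 birds).

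None of the 3 ratios passed the adjusted test. RPL22L1 ranged widely, from 183 to 812 normalized FPKM in fat libraries and from 137 to 1631 in lean libraries, whereas RPL22 ran from 123 to 370 in fat and from 105.5 to 269 in lean libraries. RPL7L1 lay between 3.43 and 12.2 in fat and between 1.34 and 11.7 in lean libraries, and RPS27L between 2.22 and 18.4 in fat and between 3.15 and 15.7 in lean libraries. RPL3, with RPL3L listed at 0, had 155 ± 49.2 in fat and 120 ± 69.4 in lean libraries (adjusted p = 0.287). No symbol was listed for RPL26, RPL39L or RPL36AL, the partners of RPL26L1, RPL39 and RPL36A, so these pairs could not be compared. RPL39 had 388 to 775 in fat and 194 to 595 in lean libraries, a log2 fold change of 0.65 (SE 0.20, adjusted p = 0.0574, called with the replicate block), and RPL36A had 304 to 567 in fat and 149 to 421 in lean libraries, a log2 fold change of 0.68 (SE 0.17, adjusted p = 0.0319), each higher in 10 of 10 birds.

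The 2 members whose products are made as fusions did not move together. RPS27A, fused to ubiquitin, lay between 179 and 295 normalized FPKM in fat libraries (median 260) and between 100.8 and 318 in lean libraries (median 152), with a log2 fold change of 0.63 (SE 0.17, adjusted p = 0.0407, higher in 9 of 10 birds). FAU, fused to a ubiquitin-like protein, was at −0.74 as given above. RPS27A was called and FAU was not.

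Genes that work with the set were counted as lists. Of 18 other genes whose mRNAs carry the same pyrimidine tract (elongation factors, initiation factor subunits and others) 17 were analysed, and 14 were higher in fat birds with size factors or quantile normalization, 10 with FPKM and 8 with TPM. With size factors 7 were called higher and 0 lower by limma (9 and 0 at an unadjusted p under 0.05), against 4 higher and 2 lower with TPM, beside 1.49% and 3.27% of all genes with size factors and 0.231% and 15.7% with TPM. Their median log2 fold change was 0.35, beside 0.44 for the members and −0.10 for all genes. Of 37 ribosome biogenesis factors, which process the RNA and assemble the subunits in the nucleolus, 30 were analysed, 17 were higher and 13 lower with size factors (4 and 26 with TPM), 1 was called in each direction, a share near that of all genes, and the median was 0.05. RACK1, a further small subunit protein, was not analysed here.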

How the data were processed

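RNA of whole blood from 10 garden warblers, sampled as fat on day 5 and as lean on day 1, made up 20 libraries. The authors checked reads with FastQC, aligned them with STAR against the zebra finch assembly and estimated gene levels by StringTie (versions not given in the sources used here) on a library kit that keeps strand. The deposited tables give coverage (mean depth per base), FPKM and TPM per gene and library, without read counts and with no scaling between libraries, so no counting error could be given. Coverage was used for depth only.

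FPKM was summed per symbol and divided by median-of-ratio factors over 4487 symbols above 0 in every library. Genes with a mean FPKM of at least 0.1 (7800 of 20898) were compared as log2(FPKM + 0.1) with limma 3.58.1 in R 4.3.3 (two-sided, trended moderation). Calls were made at a p under 0.05 after Benjamini-Hochberg adjustment, and no bird term entered, as the study names none. Figures used matplotlib 3.10.9, and tables used scipy 1.17.1, pandas 2.3.3 and numpy 2.4.6 in Python 3.11.15. The limma step was tested on simulated data. Groups and bird numbers came from the labels. The libraries of a bird had r of 0.152 to 0.382 (median 0.236) after removal of the group means, against −0.02 otherwise, and the codes of birds 8 and 10 differ between sources. The named genes were the 5 most abundant, the 5 largest rises and 5 largest falls of each subunit, the 3 largest differences relative to the set each way, paralogs, RPLP0, RPLP1, RPLP2, RPSA, FAU, RPS27A and members listed at 0, and other members were named after their values were seen. Some genes that the rule takes are left unnamed here. The members and lists were chosen with earlier results of these data known. Alternatives were pseudocounts of 0.01 and 1, other filters, FPKM and TPM as deposited, quantile normalization, scaling without the members, the largest line per symbol, the mean of the members as centre, bird as a block and leaving out each bird.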

Additional observations from a re-analysis of the deposited data

Results flagged for a closer look

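In groups of 10 libraries, 6 of 88 groups of named values had 1 library far from the others (gap over range beyond Dixon's limit), and chance alone marks about 1 in 20. RPL22 reached 370 normalized FPKM in the fat library of bird 3. RPL23A reached 2096 in the fat library of bird 7, and RPS24 reached 1325 in the fat library of bird 8. RPLP1 reached 5029 in the lean library of bird 1. RPL7L1 was lowest in both libraries of bird 2, with 3.43 in the fat and 1.34 in the lean library.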

How the results depend on the processing

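The number of members called higher in fat birds was 18. It was 8 with no filter on low values, 3 with FPKM and 1 with TPM as deposited, 7 under quantile normalization and 6 to 14 when single birds were left out. The number called lower was 0, against 4 with FPKM, 4 with TPM, 2 under quantile normalization and 0 to 1 without single birds. Of all genes, 51 were called higher and 69 lower with no filter. Single birds left out gave 29 to 114 of all genes higher and 44 to 286 lower. With the bird as a replicate block 32 members were called higher and 0 lower (16 and 0 in the 8 birds whose codes match). Without birds 1 to 10 in turn that fit gave 39, 31, 29, 30, 29, 31, 28, 28, 30 and 26 members higher and 0 to 1 lower (added later), beside 218 to 425 of all genes higher and 336 to 708 lower. In block fits added after seeing the data there were 6 members higher and 7 lower with TPM, beside 53 and 1954 of all 7800 genes. With FPKM there were 12 members higher and 4 lower, beside 75 and 1444 of all genes. Relative to the set, 1 higher and 11 lower became 2 higher with a pseudocount of 1, 7 lower under quantile normalization, 4 higher and 5 lower with the mean of the members as centre, 4 higher with the replicate block and 2 higher with that block in those 8 birds, while single birds left 1 higher and 7 to 12 lower. Of all genes, 14 were called higher and 1571 lower with the mean of the members as centre. The median log2 fold change of the members stayed between 0.38 and 0.54 without single birds. With all other settings tried the counts stayed within 1.5 times, and no value called with size factors turned its direction. The share of all TPM differed by −0.74 to −0.18 points without single birds. Read counts are not given, so the depth behind a single member is unknown, which bears most on RPL7L1 and RPS27L.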
